A study of Mus musculus with 6 samples.

Results

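The mitosis genes are 44 genes whose products drive a cell through division, from the kinases that start mitosis to the proteins that cut the daughter cells apart. They were taken by gene name from the deposited table of 54433 genes, and all 44 were found and passed the filter on low counts. RNA sequencing was done on 6 libraries of the mouse line MC3T3-E1, osteoblast-like cells that are widely grown to study bone formation. The FR libraries (FR1, FR2 and FR3) came from MC3T3-E1 cells resistant to 30 ppm fluoride, which were obtained by continuous culture in a gradient of 10 ppm fluoride until proliferation was back to normal and are labelled as exposed to a gradient of 30 ppm. The WT libraries (WT1, WT2 and WT3) came from wild-type MC3T3-E1 cells, labelled as controls, and every culture was kept in DMEM with serum. The labels do not say whether the FR cells are a single clone, nor if libraries of the same group were grown as cultures of their own, so p-values measure only the spread between these libraries, which may be technical. The FR group differs from WT at once in its resistance, in its fluoride exposure and in the continuous culture by which it was obtained. These cannot be told apart.

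Entry into mitosis is set by cyclin-dependent kinase 1 bound to A- and B-type cyclins, which is released from inhibition by CDC25 phosphatases and helped by Polo-like and Aurora kinases. Condensins then compact the chromosomes, kinetochores attach them to the spindle, and the spindle checkpoint holds back the anaphase-promoting complex until all are attached. Most of these genes are transcribed late in the cell cycle, so that their RNA in a growing culture is high when many cells are dividing.

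Mitosis genes were mostly lower in FR than in WT, by small amounts. Of the 44 genes, 26 fell, 9 rose and 9 did not pass the test (quasi-likelihood F-test of edgeR, adjusted p under 0.05 over all genes). In all, 79.5% of the mitosis genes and 70.1% of the 14889 genes tested were called. Calls were lower in FR for 59.1% of the mitosis genes and 35.5% of all genes, and higher in FR for 20.5% and 34.6%. The median log2 fold change (FR over WT) was −0.19 over the mitosis genes and 0.00 over all genes tested. No mitosis gene was called with a change of 2-fold or more, as 18.8% of all genes tested were. A change of at least 1.5-fold was called for 2 of 44 (4.55%), Spc25 and Ncapd2, against 30.4% of all genes tested. All genes tested include genes at far lower counts than any mitosis gene, and these shares were not matched for level. Log2 fold changes ran from −0.80 for Spc25 to 0.47 for Mybl2. In bulk RNA, fewer dividing cells and less RNA per dividing cell cannot be told apart.

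**Figure D1:**
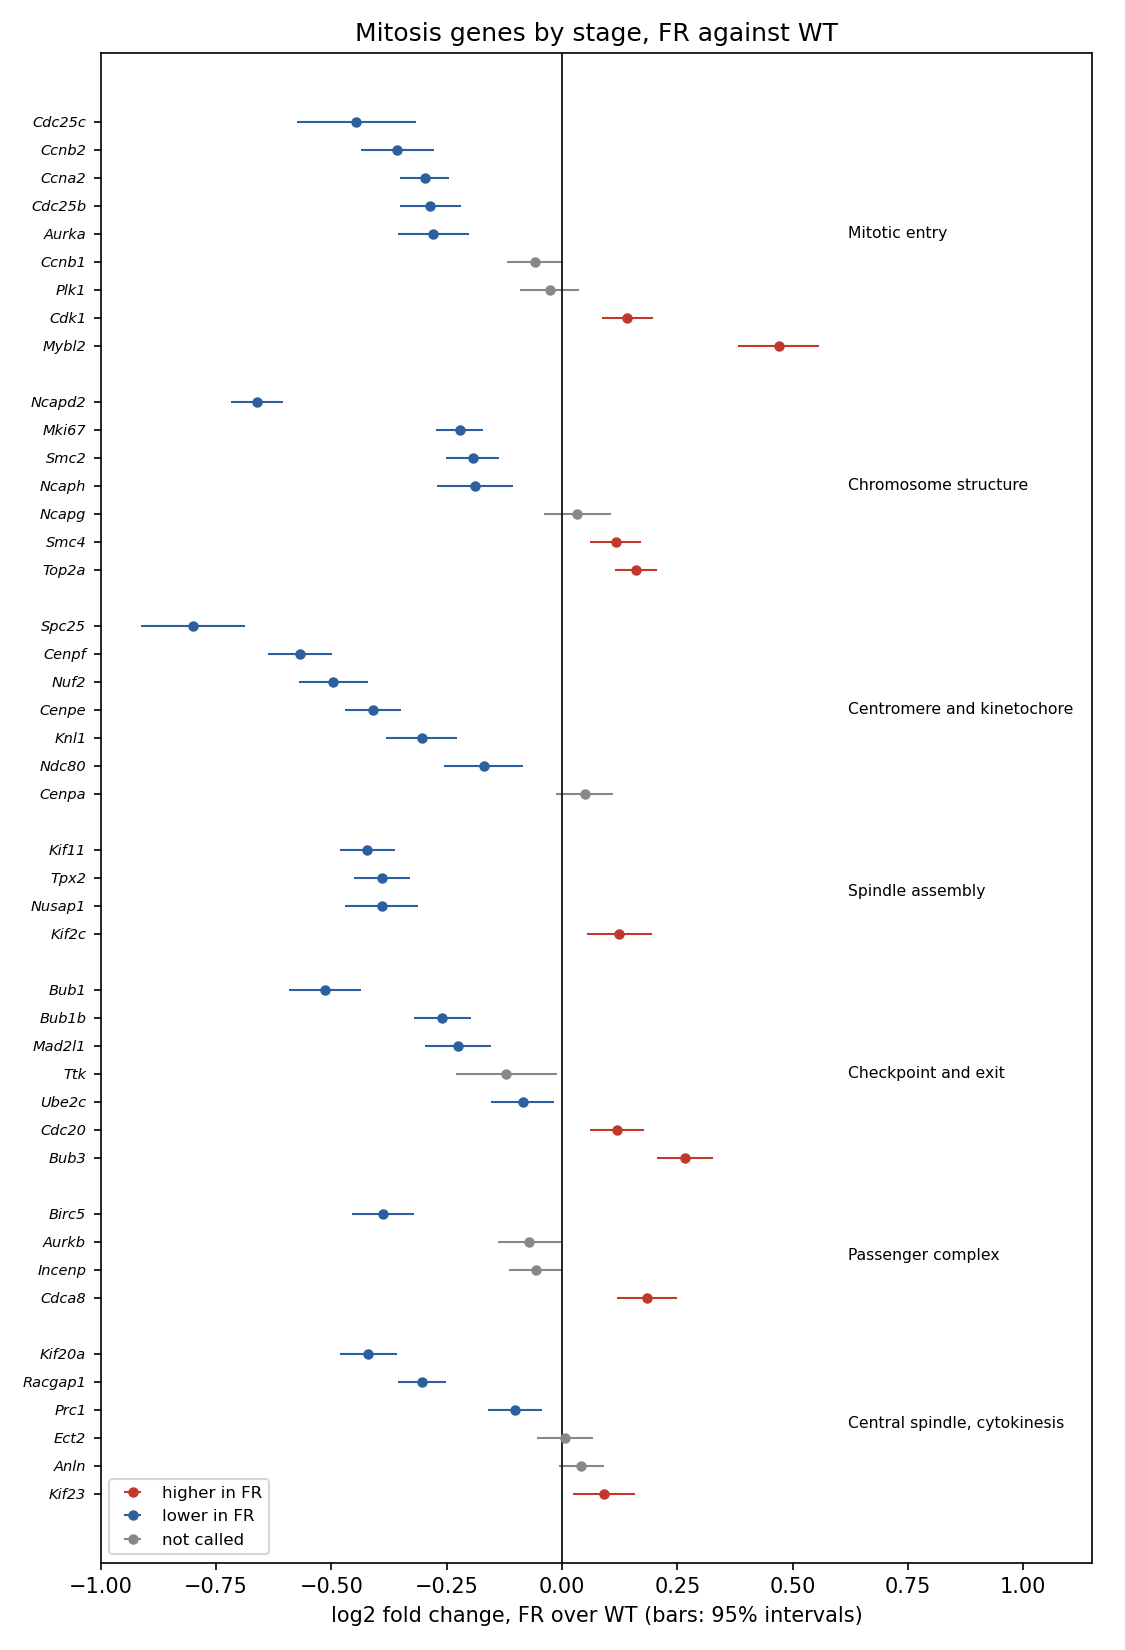
Log2 fold change of FR over WT (x axis) of the 44 mitosis genes (y axis), grouped by stage, with bars of 95% intervals. Points left of 0 are lower in FR, and colours mark the 26 genes called lower, the 9 called higher and the 9 not called.

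The summed level of the 44 genes was 6836, 6766 and 6931 CPM in FR1, FR2 and FR3, against 7456, 7426 and 7459 CPM in WT1, WT2 and WT3 (CPM, counts scaled to library size with TMM factors). The groups did not overlap, and the mean was 6844 ± 82.4 CPM in FR and 7447 ± 18.3 CPM in WT (SD, n = 3 each), an FR to WT ratio of 0.919. As a share of all counts the genes made up 0.684%, 0.672% and 0.692% of the FR libraries and 0.750%, 0.745% and 0.741% of the WT libraries. For 37 of the 44 genes the FR and WT ranges of CPM were apart, with FR lower for 27 and higher for 10. Ranges were apart for 72.4% of all genes tested, with FR lower for 36.6% and higher for 35.7%. The spread among libraries was small, with a median coefficient of variation of 3.03% in FR and 1.64% in WT. Over all genes tested these medians were 5.36% and 4.62%. Within FR, FR2 was the lowest library for 25 of the 44 genes and FR3 the highest for 21, whereas within WT no library was lowest for more than 16 or highest for more than 17. Such counts were not made over all genes.

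**Figure D2:**
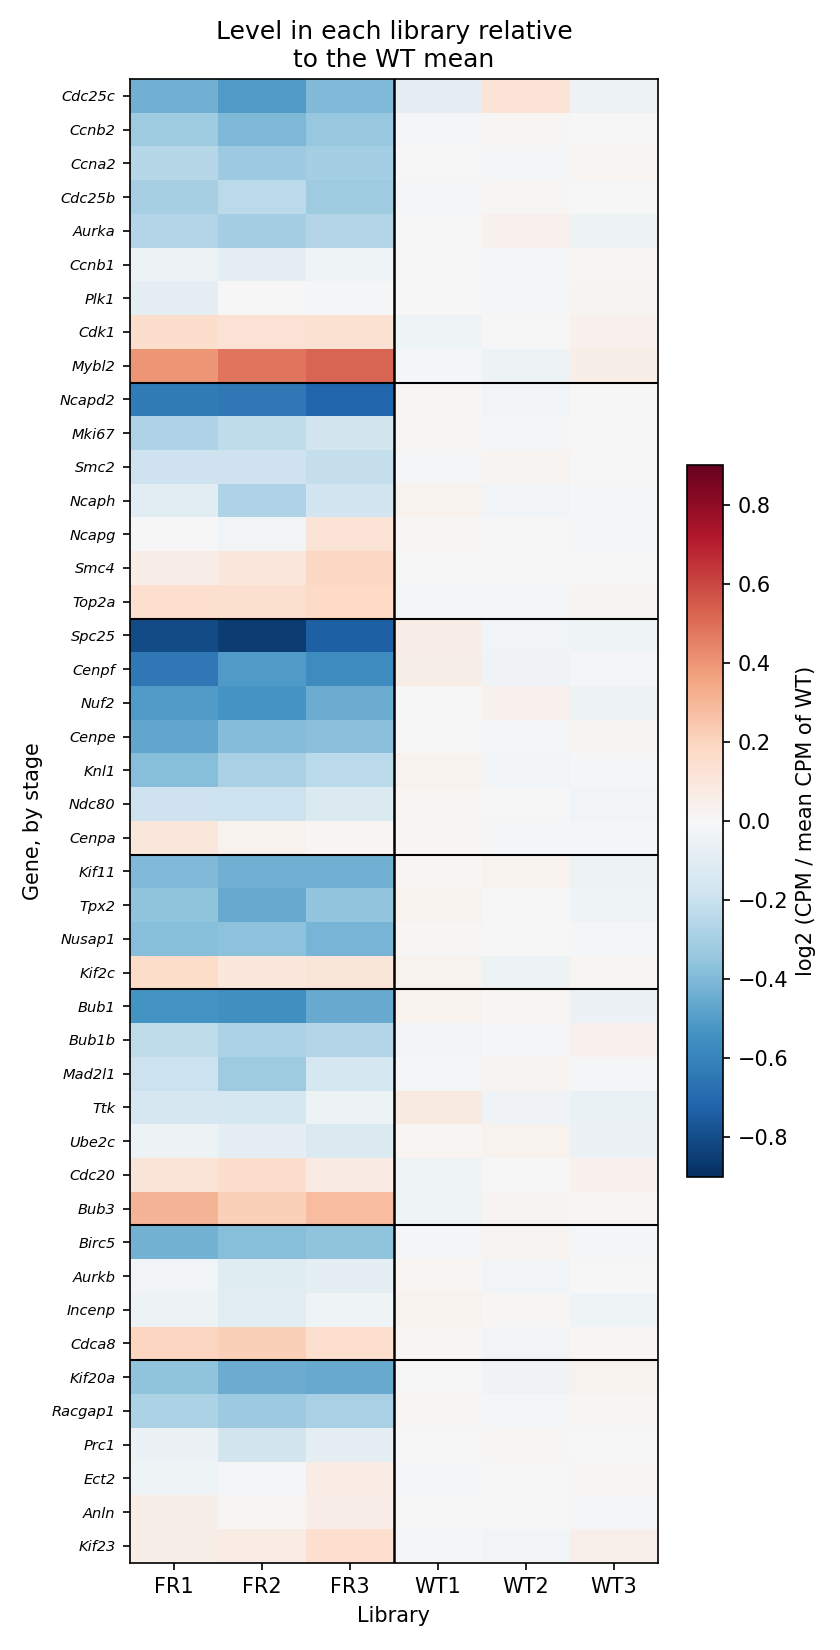
Level of each mitosis gene (rows, by stage) in each library (columns) as log2 of CPM over the WT mean. The FR columns are blue, below the WT mean, for most rows, with Spc25 and Ncapd2 darkest and Mybl2 reddest.

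Library totals ran from 19246119 to 25185697 counts in FR and from 25700497 to 27140662 in WT. The smallest value of a mitosis gene was 388 counts, for Cdc25c in an FR library, while 3 counts correspond to 0.110 to 0.156 CPM, which covers counting error only. Of 9 markers of osteoblasts, Col1a1, Col1a2, Spp1, Cdh11 and Runx2 were measured well, Ibsp had 0 counts in every library and Sp7, Alpl and Bglap had at most 8. The summed level of the osteoblast markers was 4169 to 4216 CPM in FR and 16043 to 16350 CPM in WT, mostly Col1a2, Col1a1 and Spp1. Runx2 differed far less, at 57.3, 57.9 and 56.5 CPM in FR and 69.9, 70.9 and 68.7 CPM in WT. Markers of blood cells summed to 8.95 to 10.5 CPM in FR and 0.780 to 1.55 CPM in WT, in FR mostly Csf1r. Cd68 was also higher in FR, at 2.34, 2.12 and 2.31 CPM, against 0.586, 0.621 and 0.195 CPM in WT. Ptprc, Adgre1 and Itgam had no more than 5, 1 and 1 counts in any library. Muscle markers summed to 5.97 to 6.87 CPM in FR and 1.65 to 2.06 CPM in WT, mostly Des, with Myod1 at 0 in every library. Chondrocyte markers summed to 48.3 to 51.2 CPM in FR and 70.3 to 73.1 CPM in WT, nearly all of it Sox9, with Acan at 0. Endothelial, epithelial and adipocyte markers summed to at most 1.66 CPM in FR and 1.36 CPM in WT. The part of these shifts in the changes of the mitosis genes was not tested.

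Promoter sequences were examined because many late cell cycle genes share a short element near the transcription start, the cell cycle genes homology region (CHR), bound by the MuvB complex, and upstream CCAAT boxes bound by NF-Y. RefSeq promoter windows of build GRCm38.p6 (250 bases before to 50 after the annotated start, 1 window a gene) were found for 37 of the 44 genes, and not for Ccna2, Cdc25c, Smc4, Tpx2, Aurkb, Incenp and Kif20a. The CHR hexamer TTTGAA was searched on both strands and occurred in 27 of the 37 windows (73.0%), against 18.1% of 27025 promoter windows of all genes. CCAAT, also on both strands, occurred in 27 of 37 (73.0%), against 37.9% of all, and both elements together in 23 of 37 (62.2%), against 7.12%. Within 50 bases of the start, TTTGAA was present in 24 of 37 windows (64.9%), against 4.92% of all windows. Matches were counted for each motif by itself, and 1 CCAAT, in Cdca8, shared a base with a TTTGAA. The variant TTTAAA occurred in 9 of 37 (24.3%), against 13.2% of all, and GCGGGAA, an E2F-type core, in 1 of 37 (2.70%), against 4.66%. The windows of all genes include genes too low to be tested here. Over the 10272 windows of tested genes the shares were 12.3% for TTTGAA, 40.2% for CCAAT, 9.21% for TTTAAA and 8.62% for GCGGGAA. These are matches of letters, not shown sites of binding, and the windows are of another build than the counts.

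**Figure D3:**
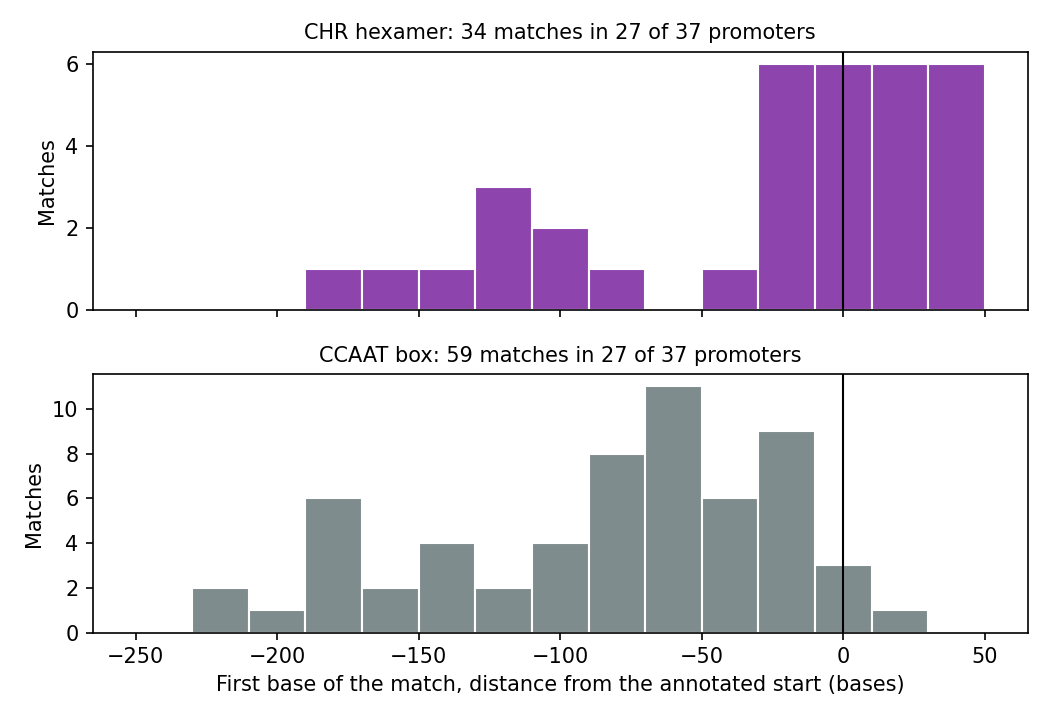
Number of matches (y axis) by the distance of their first base from the annotated start (x axis, bases) for the CHR hexamer (above, 34 matches) and the CCAAT box (below, 59 matches) in the 37 promoter windows. CHR matches gather within 50 bases of the start, where 25 of the 34 lie, and CCAAT matches lie mostly upstream of it.

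By outcome, TTTGAA was present in 14 of 22 matched genes called lower, 7 of 8 called higher and 6 of 7 not called. The median log2 fold change was −0.10 with the hexamer and −0.34 without it, as a description over genes that share libraries. The windows of the gene with the largest fall (Spc25, chr2:69206164-69206463, minus strand), the largest rise (Mybl2, chr2:163054385-163054684, plus strand), Ccnb1 (chr13:100786437-100786736, minus strand) and Cdk1 (chr10:69352863-69353162, minus strand) are shown 5′ to 3′ along the gene, with the CHR hexamer, its variant and the CCAAT box on either strand in capitals.
Spc25: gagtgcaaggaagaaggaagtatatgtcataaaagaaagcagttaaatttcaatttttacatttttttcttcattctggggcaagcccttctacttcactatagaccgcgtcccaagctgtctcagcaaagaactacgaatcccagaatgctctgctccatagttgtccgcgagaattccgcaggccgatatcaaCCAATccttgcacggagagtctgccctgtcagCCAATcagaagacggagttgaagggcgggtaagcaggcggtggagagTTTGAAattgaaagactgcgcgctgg
Mybl2: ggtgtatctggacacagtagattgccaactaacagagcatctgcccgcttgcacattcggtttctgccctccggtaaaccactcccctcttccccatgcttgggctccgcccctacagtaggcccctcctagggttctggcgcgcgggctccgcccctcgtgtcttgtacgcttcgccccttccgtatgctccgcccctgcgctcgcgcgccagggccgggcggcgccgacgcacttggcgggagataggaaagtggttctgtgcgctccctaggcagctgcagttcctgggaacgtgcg
Ccnb1: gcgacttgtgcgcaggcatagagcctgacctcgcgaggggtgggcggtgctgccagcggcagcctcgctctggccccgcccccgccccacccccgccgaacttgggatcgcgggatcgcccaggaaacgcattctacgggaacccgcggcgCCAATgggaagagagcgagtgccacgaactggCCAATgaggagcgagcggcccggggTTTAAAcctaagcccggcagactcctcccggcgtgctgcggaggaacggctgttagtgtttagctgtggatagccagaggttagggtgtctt
Cdk1: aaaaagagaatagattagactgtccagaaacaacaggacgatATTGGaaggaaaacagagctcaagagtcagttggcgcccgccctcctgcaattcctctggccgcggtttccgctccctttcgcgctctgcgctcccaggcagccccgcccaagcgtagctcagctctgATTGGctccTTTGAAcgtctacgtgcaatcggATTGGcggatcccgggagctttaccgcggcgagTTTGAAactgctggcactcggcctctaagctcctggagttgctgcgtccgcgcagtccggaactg
Spc25 had 2 CCAAT boxes upstream of the start and TTTGAA downstream of it. Cdk1 had TTTGAA at 2 places, both upstream, with its CCAAT boxes on the opposite strand, so that they read ATTGG in the window as shown. Ccnb1 had TTTAAA in place of TTTGAA below 2 CCAAT boxes, and the Mybl2 window held none of the 3.

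Of the 9 genes of mitotic entry, 5 fell and 2 rose, the other 2 not passing the test (median log2 fold change −0.28). Beside this count and those of the later stages, 35.5% of all genes tested were lower and 34.6% higher. Cdk1, the kinase that starts mitosis, had 231, 226 and 227 CPM in FR and 201, 207 and 212 CPM in WT. All FR values lay above all WT values, and the rise was small (log2 fold change 0.14 ± 0.03 SE, edgeR adjusted p = 6.57e-05). Its partner Ccnb1 (cyclin B1) had 126, 123 and 127 CPM in FR and 130.0, 129 and 132 CPM in WT. These ranges did not overlap, but the difference did not pass (−0.06 ± 0.03 SE, adjusted p = 0.0940 by edgeR, with an approximate 95% interval of −0.12 to 0.00), though it did with no filter on low counts (0.0378). The other mitotic cyclins fell. Ccnb2 (cyclin B2) had 53.6, 50.5 and 53.0 CPM in FR and 66.5, 67.5 and 67.1 CPM in WT, with no overlap (−0.36 ± 0.04 SE, edgeR adjusted p = 6.11e-09). Ccna2 (cyclin A2), active from S phase into early mitosis, was at 259.5 ± 6.51 CPM in FR and 319 ± 4.26 CPM in WT (SD, n = 3 each; −0.30 ± 0.03 SE).

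Among the phosphatases that activate CDK1, Cdc25c had 20.2, 19.1 and 20.6 CPM in FR and 25.7, 29.5 and 26.3 CPM in WT, the largest fall of this stage (−0.45 ± 0.07 SE, edgeR adjusted p = 8.55e-07). Cdc25b fell less (−0.29 ± 0.03 SE), to 86.9 ± 2.50 CPM in FR, against 106 ± 0.920 CPM in WT (SD, n = 3 each). The kinase gene Aurka, needed for centrosome maturation, fell by 0.28 on the log2 scale. Plk1, a kinase that promotes entry and later exit, had 120.1, 127 and 126 CPM in FR and 126, 125 and 129 CPM in WT. Its groups overlapped (−0.03 ± 0.03 SE, edgeR adjusted p = 0.469). Mybl2 (ENSMUSG00000017861), which encodes the B-Myb transcription factor that works with MuvB on late cell cycle genes, had 58.1, 61.4 and 63.2 CPM in FR and 43.6, 42.7 and 45.7 CPM in WT. It was 1.39-fold higher in FR, the largest rise of any mitosis gene (0.47 ± 0.04 SE, edgeR adjusted p = 2.17e-10).

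Of the 7 genes of chromosome structure, 4 fell, 2 rose and 1 did not pass (median −0.19). Ncapd2 (ENSMUSG00000038252), a HEAT-repeat subunit of condensin I, had 163, 162 and 154 CPM in FR and 256, 248 and 253 CPM in WT. It stood at 63.2% of its WT level, the second largest fall of the 44 genes (−0.66 ± 0.03 SE, edgeR adjusted p = 6.69e-18). The remaining condensin I genes moved less and not in 1 direction. The ATPase subunit gene Smc4 had 369, 381 and 402 CPM in FR and 353, 353 and 356 CPM in WT, a small rise without overlap (0.12 ± 0.03 SE, edgeR adjusted p = 0.000637). Its partner Smc2 (−0.19 ± 0.03 SE) and the kleisin Ncaph (−0.19 ± 0.04 SE) fell, and Ncapg, the second HEAT-repeat subunit, overlapped between groups (0.03 ± 0.04 SE).

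Top2a (topoisomerase IIα, which untangles sister DNA) had 771, 767 and 783 CPM in FR and 686, 688 and 704 CPM in WT. Mki67, the proliferation antigen Ki-67 that coats mitotic chromosomes, had 598, 618 and 648 CPM in FR and 729.7, 718 and 726 CPM in WT. These 2 common proliferation markers moved in opposite directions, each without overlap: Top2a rose (0.16 ± 0.02 SE, edgeR adjusted p = 7.31e-07) and Mki67 fell (−0.22 ± 0.03 SE, edgeR adjusted p = 1.70e-08).

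**Figure D4:**
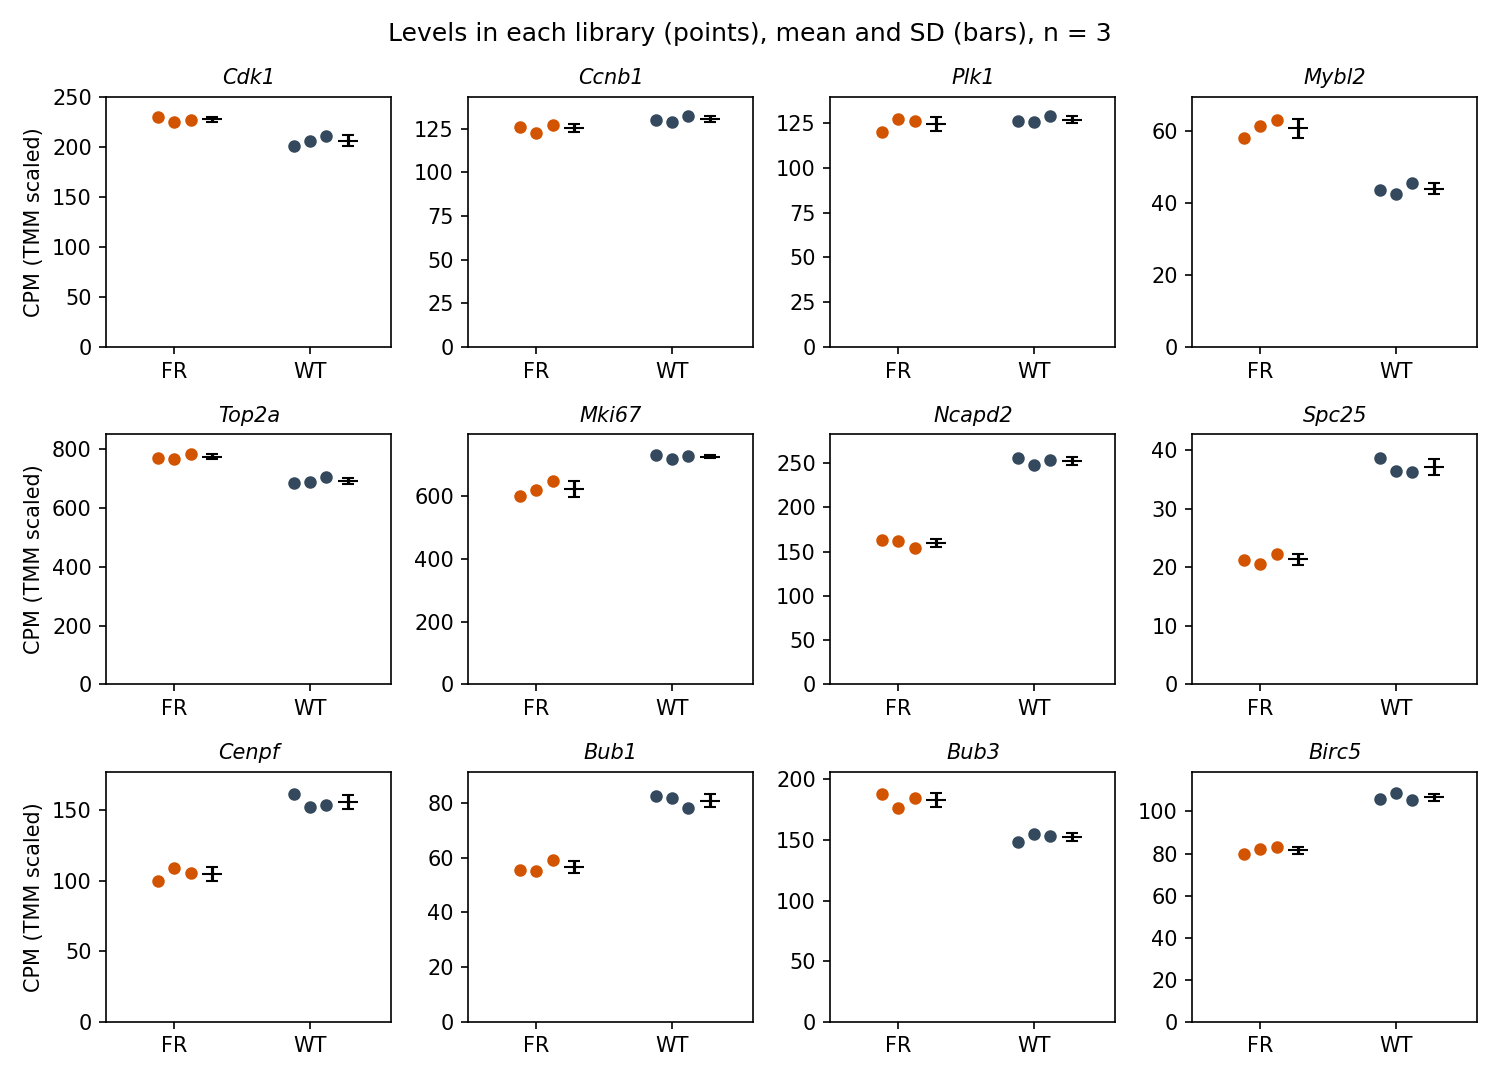
CPM of 12 mitosis genes in the FR and WT libraries (points), each panel from 0, with the mean and SD of 3 libraries (bars). Mybl2 and Bub3 lie higher in FR, Ncapd2, Spc25, Cenpf, Bub1 and Birc5 lower, and Plk1 overlaps.

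The centromere and kinetochore genes held the largest fall, and 6 of 7 fell while none rose (median −0.41). Among all genes tested, 35.5% were lower and 34.6% higher. The 32 further kinetochore genes described below were mixed, with 10 lower and 8 higher (median −0.02). Spc25 (ENSMUSG00000005233), a subunit of the NDC80 complex that binds microtubules, had 21.2, 20.5 and 22.3 CPM in FR and 38.7, 36.5 and 36.2 CPM in WT. The groups lay far apart, with FR at 57.4% of the WT level (−0.80 ± 0.06 SE, edgeR adjusted p = 4.60e-13). The other NDC80 complex genes of the list fell less, Nuf2 by 0.50 and Ndc80 by 0.17 on the log2 scale. Cenpf, a large kinetochore protein of late G2 and mitosis, had 99.9, 109 and 105 CPM in FR and 161, 152 and 154 CPM in WT. All its FR values were lower (−0.57 ± 0.04 SE, edgeR adjusted p = 1.86e-14). The kinetochore motor gene Cenpe fell by 0.41 and the scaffold gene Knl1 by 0.30 on the log2 scale. Cenpa, the histone H3 variant that marks centromeres, had 149, 141 and 139 CPM in FR and 140.0, 137 and 137 CPM in WT, and did not pass (0.05 ± 0.03 SE, edgeR adjusted p = 0.170).

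Of the 4 spindle assembly genes, 3 fell and 1 rose (median −0.39). Kif11, the motor that pushes the spindle poles apart, had 139, 135 and 135 CPM in FR and 184, 187 and 178 CPM in WT. Tpx2, which activates Aurora A on the spindle, had 168, 157 and 169 CPM in FR and 220.3, 216 and 210.2 CPM in WT. Neither gene overlapped between groups, with log2 fold changes of −0.42 ± 0.03 SE and −0.39 ± 0.03 SE (edgeR adjusted p = 5.70e-13 for Kif11 and 5.23e-12 for Tpx2). The microtubule-bundling gene Nusap1 fell by 0.39 as well. Kif2c, a motor that shortens microtubules at the centromere, had 99.0, 94.3 and 95.1 CPM in FR and 90.1, 85.3 and 89.0 CPM in WT (0.12 ± 0.04 SE, edgeR adjusted p = 0.00276). Its rise no longer passed when the library WT2 was left out (0.09, edgeR adjusted p = 0.0569).

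Of the 7 genes of the spindle checkpoint and mitotic exit, 4 fell, 2 rose and 1 did not pass (median −0.12). Bub1, a checkpoint kinase, had 55.6, 55.2 and 59.2 CPM in FR and 82.6, 82.0 and 78.0 CPM in WT. It stood at 70.0% of its WT level without overlap (−0.51 ± 0.04 SE, edgeR adjusted p = 3.24e-12). Bub1b, which encodes the inhibitor BubR1, had 131, 126 and 128 CPM in FR and 151, 152 and 157 CPM in WT (−0.26 ± 0.03 SE, edgeR adjusted p = 2.11e-08). Bub3, the WD-repeat partner of both, went the other way. It had 188, 177 and 185 CPM in FR and 148, 155 and 153 CPM in WT (0.27 ± 0.03 SE, edgeR adjusted p = 1.25e-08). Mad2l1, the checkpoint protein that captures CDC20, fell by 0.23 on the log2 scale.

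Cdc20, the activator of the anaphase-promoting complex, had 217, 223 and 211 CPM in FR and 194, 199 and 205 CPM in WT, a small rise without overlap (0.12 ± 0.03 SE, edgeR adjusted p = 0.000773). Ube2c, a ubiquitin-conjugating enzyme of that complex, was at 103 ± 2.92 CPM in FR and 109 ± 3.56 CPM in WT (SD, n = 3 each), overlapped between groups and passed narrowly (−0.09 ± 0.03 SE, edgeR adjusted p = 0.0317). Ube2c did not pass with DESeq2 (adjusted p = 0.0808) or without FR3, WT1 or WT2 (edgeR adjusted p = 0.134, 0.0521 and 0.0740 in that order). Ttk, the checkpoint kinase also known as MPS1, did not pass (−0.12 ± 0.06 SE, edgeR adjusted p = 0.0547), but it did without FR3, WT2 or WT3 (edgeR adjusted p = 0.0250, 0.0425 and 0.0349 in that order) and with median-of-ratios size factors or no filter (0.0488 and 0.0251), though not with library size alone (0.0509). Over the 14 alternatives the adjusted p of Ttk ran from 0.0250 (edgeR) to 0.199 (edgeR, without WT1).

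The chromosomal passenger complex, which corrects faulty attachments, joins the kinase Aurora B (Aurkb) to INCENP, survivin (Birc5) and borealin (Cdca8). Of these 4 genes, 1 fell, 1 rose and 2 did not pass (median −0.06). Birc5 had 79.7, 82.0 and 83.0 CPM in FR and 106, 109 and 106 CPM in WT, and Cdca8 had 114, 115 and 110.2 CPM in FR and 100.0, 97.8 and 101 CPM in WT. Birc5 was lower in every FR library (−0.39 ± 0.03 SE, edgeR adjusted p = 4.34e-11) and Cdca8 higher in every one (0.18 ± 0.03 SE, edgeR adjusted p = 1.54e-05). Aurkb had 88.2, 83.4 and 85.0 CPM in FR and 91.0, 88.3 and 90.0 CPM in WT. Its ranges nearly touched, and it did not pass (−0.07 ± 0.04 SE, edgeR adjusted p = 0.0749), though it did without FR1 or WT2 (edgeR adjusted p = 0.0218 and 0.0380) and with no filter (0.0296). Incenp, the scaffold, overlapped (−0.06 ± 0.03 SE, edgeR adjusted p = 0.0833) and passed without WT3 (edgeR adjusted p = 0.0278) and with no filter (0.0244).

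Of the 6 genes of the central spindle and cytokinesis, 3 fell, 1 rose and 2 did not pass (median −0.05). Kif20a, a motor of the central spindle, had 147, 138 and 138 CPM in FR and 189, 184 and 192 CPM in WT (−0.42 ± 0.03 SE, edgeR adjusted p = 1.20e-12). Racgap1, the GTPase-activating part of centralspindlin, had 237, 230.4 and 236 CPM in FR and 291, 286 and 291 CPM in WT (−0.30 ± 0.03 SE, edgeR adjusted p = 3.69e-11). Both were lower in every FR library. The motor Kif23, the other part of centralspindlin, had 119, 120.5 and 128 CPM in FR and 114, 113 and 119 CPM in WT, with little space between the groups. It was called higher by a small amount (0.09 ± 0.03 SE, edgeR adjusted p = 0.0212), a call lost with DESeq2 (adjusted p = 0.0648), with no filter on low counts (edgeR adjusted p = 0.122) and without FR3, WT1 or WT2 (edgeR adjusted p = 0.184, 0.123 and 0.171 in that order). The microtubule cross-linker Prc1 fell by 0.10 on the log2 scale, while Ect2, the exchange factor for RhoA, was at 0.01 ± 0.03 SE and the contractile-ring scaffold Anln at 0.04 ± 0.03 SE, and neither passed.

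Summed by stage, the kinetochore genes came to 563, 575 and 579.7 CPM in FR and 735, 718 and 719 CPM in WT, and the spindle assembly genes to 455, 436 and 447 CPM in FR and 559, 553 and 540.5 CPM in WT. Both stages lay well below WT. The checkpoint and exit genes came to 849, 826 and 839.7 CPM in FR and 861, 876 and 869 CPM in WT, and the passenger genes to 474, 467 and 472 CPM in FR and 500.1, 495 and 489 CPM in WT. These differences were much smaller than those of the kinetochore and spindle sums, though the groups did not overlap. Opposite changes partly cancel in them, as Bub3, Cdc20 and Cdca8 rose while Bub1, Bub1b, Mad2l1 and Birc5 fell. Each sum also weighs its genes by their level. The sums of the remaining stages were also lower in FR without overlap. Means in FR and WT were 1016 and 1098 CPM for entry, 2256 and 2369 CPM for chromosome structure, and 1245 and 1341 CPM for cytokinesis. Whether the stages differ from each other was not tested.

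Levels of different genes were compared per length, as CPM per kilobase of the deposited gene length. On this scale Cdk1 was the highest mitosis gene at 182 ± 2.10 in FR and 165 ± 4.19 in WT, and Top2a came next at 148 ± 1.62 in FR and 133 ± 1.94 in WT (SD, n = 3 each). The lowest was Cenpf in FR at 9.42 ± 0.426 and Ttk in WT at 11.9 ± 0.607. Birc5 stood at place 9 of 44 in FR and place 4 in WT, and Ncapd2 at place 25 in FR and 19 in WT. Cdca8 stood at place 6 in FR and 12 in WT, and Mybl2 at place 37 in FR and 43 in WT. Neighbours in these orders often lay within their spread: Ube2c, Birc5 and Cdc20 in WT were at 113 ± 3.69, 113 ± 1.78 and 111 ± 2.99. Gene length itself had little relation to the change, with a Spearman rho of −0.17 across the 44 genes, which share libraries.

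Ratios of partners within 1 complex were chosen after their values were seen and are given without a test. Spc25 to Ndc80 was 0.701, 0.680 and 0.709 in FR and 1.11, 1.06 and 1.07 in WT, as CPM per kilobase. Ncapd2 to Smc4 was 0.412, 0.396 and 0.358 in FR and 0.676, 0.654 and 0.664 in WT. Birc5 to Cdca8 was 0.936, 0.949 and 1.01 in FR and 1.42, 1.48 and 1.40 in WT. Each of these ratios was lower in every FR library than in any WT library. Bub1 to Bub3 was 0.201 ± 0.00835 in FR and 0.345 ± 0.0151 in WT, Racgap1 to Kif23 was 2.22 ± 0.0809 in FR and 2.91 ± 0.0633 in WT, and Ccnb1 to Cdk1 was 0.277 ± 0.00420 in FR and 0.318 ± 0.00636 in WT (SD, n = 3 each). Ncaph to Smc2 differed by less than the spread, at 0.859 ± 0.0533 in FR and 0.853 ± 0.0302 in WT. Other ratios were higher in FR. Cdc20 to Mad2l1 was 1.75 ± 0.157 in FR and 1.38 ± 0.0479 in WT, and Ncapg to Smc2 was 0.978 ± 0.0656 in FR and 0.835 ± 0.0154 in WT. A ratio shows unequal change, not which partner changed.

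The rest of the mitotic machinery was read from a list of 124 further genes, of which 122 were tested. Of these, 57 fell (46.7%) and 36 rose (29.5%), while 29 missed the threshold. Over all genes tested 35.5% fell and 34.6% rose. The median log2 fold change of the further genes was −0.08. Spindle genes of this list fell in 16 of 20 cases and rose in 2 (median −0.24), and cytokinesis genes fell in 10 of 12 and rose in 2 (median −0.15). Kinetochore genes of this list were mixed, with 10 of 32 lower (31.25%), 8 higher (25%) and 14 not called (median −0.02). Those of checkpoint and exit were mixed too, with 5 of 22 lower (22.7%) and 7 higher (31.8%). Each of these shares lay below that of all genes tested. Among genes of entry 9 of 19 fell and 7 rose, and among those of cohesion and chromosome structure 7 of 17 fell and 10 rose (median 0.14). Foxm1, the transcription factor that drives many mitosis genes, fell to 149 ± 3.43 CPM in FR, against 194 ± 2.80 CPM in WT (SD, n = 3 each; −0.38 ± 0.03 SE). Cdc25a, the CDC25 phosphatase of G1 and S phase, rose (0.65 ± 0.04 SE), unlike Cdc25b and Cdc25c.

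Within the entry list the largest changes were Rbbp4, a MuvB subunit, which rose (0.66 ± 0.03 SE), and Wee1, the kinase that inhibits CDK1, which fell (−0.60 ± 0.04 SE). In cohesion and chromosome structure they were the cohesin release factor Wapl (0.65 ± 0.03 SE) and the cohesin ATPase Smc1a (−1.03 ± 0.03 SE), the only gene of the 122 called with a change of at least 2-fold. Spc24, the partner of Spc25, did not pass (−0.01 ± 0.05 SE), and is named here after its value was seen. For the kinetochore the largest rise was Cenps (0.63 ± 0.08 SE) and the largest fall Cenpx (−0.89 ± 0.09 SE), which encode partners in 1 histone-fold complex. For the spindle they were the augmin gene Haus6 (0.70 ± 0.03 SE) and Ckap2l (−0.79 ± 0.04 SE), and for checkpoint and exit the anaphase-promoting complex genes Cdc26 (0.60 ± 0.04 SE) and Anapc2 (−0.37 ± 0.03 SE). For cytokinesis they were Pdcd6ip, an ESCRT-associated protein (0.33 ± 0.03 SE), and Septin9 (−0.72 ± 0.03 SE). DNA replication genes, expressed earlier in the cycle, had 18 of 42 higher (42.9%), 14 lower (33.3%) and 10 not called (median 0.03). Over all genes tested 34.6% were higher and 35.5% lower. Set side by side, the medians were −0.19 for the 44 mitosis genes, −0.08 for the further mitosis genes, 0.03 for replication and 0.00 for all genes tested, and the differences between the lists were not tested.

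**Figure D5:**
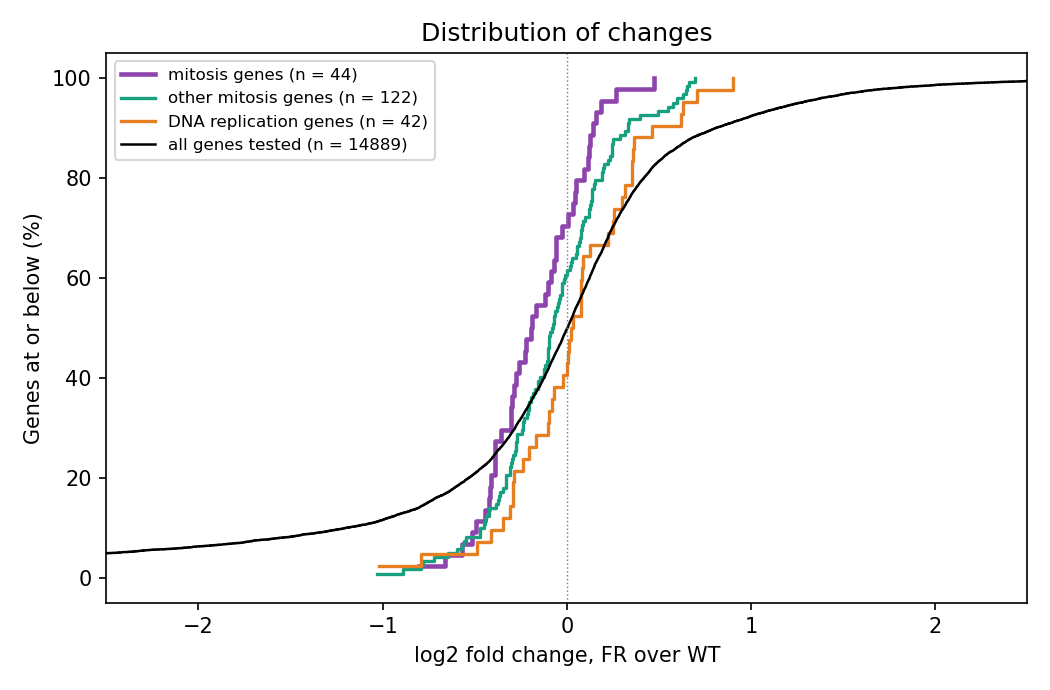
Cumulative share of genes (y axis, percent) by log2 fold change of FR over WT (x axis, cut at both ends) for the 44 mitosis genes, 122 further mitosis genes, 42 DNA replication genes and all 14889 genes tested. The curve of the mitosis genes lies left of 0 at its middle and ends before a 2-fold change on either side.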

How the data were processed

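Messenger RNA (poly(A)-selected, TruSeq libraries, paired-end reads, per the labels' protocols) was counted in 3 FR and 3 WT libraries. Per the submitters' processing notes the authors used fastp, HISAT and RSEM with build GRCm39, and deposited expected counts (RSEM's estimated counts) per gene, not scaled to depth. Versions and the strand setting are not given in the sources used here, so overlapping antisense genes cannot be told apart. RSEM divides reads shared by near-identical copies by estimation. The pseudogene Ccnb1-ps had at most 1.59 counts in a library. The deposited gene length is 1 value a gene.

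Counts were rounded, filtered with filterByExpr and scaled with TMM in edgeR 4.0.16 (R 4.3.3). The comparison of FR with WT used its quasi-likelihood F-test, robust setting, over 14889 genes, with Benjamini-Hochberg adjustment and a threshold of 0.05. The 733 assembled loci without a gene name were kept. CPM use TMM factors. Intervals are the estimate ± 1.96 SE. The test was tried on simulated counts. Chi-square tests of counts between libraries of the same group gave 2.34 to 3.37 per degree of freedom, above sampling noise, so none was treated as a copy. Mitosis genes were grouped by stage. Values in every library are given for the 2 largest called rises and falls of a stage and for Cdk1, Ccnb1, Plk1, Aurkb, Mki67, Top2a and Cenpa. Of the further genes, each role's largest called rise and fall, Foxm1 and Cdc25a are named. Of 124 further genes, 1 had 2 rows of its name and was not used, and Lin54 was not analysed here. The genes and lists were chosen with earlier results of these data known. Alternatives were other scalings and filters, DESeq2 1.42.0, limma-voom (limma 3.58.1), a replicate block, each library left out and the 10 most abundant genes left out. Figures were drawn with matplotlib 3.10.9.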

Additional observations from a re-analysis of the deposited data

How the results depend on the processing

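Over 14 alternatives, 25 of the 26 genes called lower and 7 of the 9 called higher kept their call and direction in each. The exceptions were Ube2c, Kif2c and Kif23, whose values stand in the text. No mitosis gene with a call was reversed. With no filter on low counts the FR to WT ratio of the summed level was 0.904, the setting in which it moved beyond the spread between libraries, and Ccnb1, Ttk, Aurkb and Incenp were called lower there; the cause was not tested. With each library left out in turn, 7 to 9 genes were higher and 25 to 28 lower, the median log2 fold change was −0.21 to −0.17 and the ratio 0.909 to 0.920. DESeq2 gave 8 higher and 25 lower, and limma-voom 9 and 26. No scaling moved the median of all genes by over 0.1. With the replicate number as a block 9 genes were higher and 26 lower. Same-numbered libraries did not deviate together (correlations −0.03 to 0.00), so the numbers were not taken as pairs. Every mitosis gene had at least 388 counts in each library, but small changes could still be missed. Ttk, with 590 to 984 counts, did not pass at −0.12 ± 0.06 SE. Cdc20, with 4175 to 5584 counts, passed at 0.12 ± 0.03 SE. In the simulated counts, 52% of the 1.2-fold changes were called, over genes of all levels. Only 200 genes were changed there, whereas 70.1% of genes were called here, so the adjusted threshold was stricter. That share therefore does not give the power for the mitosis genes. The calls of Ube2c, Kif23 and Kif2c were lost when certain single libraries were left out, while those of Smc4, Cdc20 and Prc1, also small, were kept in each of the 14 alternatives.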
